A study of Mus musculus with 8 samples.

Results

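Messenger RNA of the mouse left ventricle was examined for 37 genes of sterol and lipid metabolism: Star, 17 enzymes of cholesterol synthesis, 7 genes of sterol sensing, 6 further genes of sterol transport and storage, and 6 enzymes of fatty acid synthesis. The genes were chosen by name around Star, which itself was selected on its measured rise after the operation in these same libraries, so the values of Star below are a description and carry no test. Each also had to reach a value of 1 in 2 or more libraries. All 37 genes met it, as did 16432 of the 49671 genes listed. The members closest to it were Sqle, at 0.154 to 12.2, and Elovl6, at 1.48 to 7.58, and no member fell outside.

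The hearts came from male C57BL/6N mice that were 8 weeks old at the start. Transverse aortic constriction (TAC), in which a band around the aortic arch makes the left ventricle pump against a higher pressure, was set against a sham operation, and RNA was taken 4 weeks later. Each operation was combined with either of 2 diets. SFA-EAA is a diet whose casein was replaced by free essential amino acids to 93.5%, and SFA is the low-fat diet it was set against. The groups were TAC on SFA, TAC on SFA-EAA, sham on SFA and sham on SFA-EAA, with 2 libraries each. The labels do not say whether the libraries of a group are separate animals, so p-values measure only the spread between these samples.

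Cholesterol is built from acetyl-CoA by way of mevalonate and squalene. The pathway is governed by the SREBP transcription factors, which Scap carries to the Golgi and Insig proteins hold back when sterols are plentiful. Surplus sterol activates the LXR receptors, is exported by Abca1 and Abcg1, or is esterified by Soat1. StAR, the product of Star, moves cholesterol into mitochondria and is best known from steroid-producing cells of the adrenal gland and the gonads, where it feeds the side-chain cleavage enzyme Cyp11a1. Whether the genes of sterol synthesis change together with Star in the loaded ventricle is the question asked of these data.

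Promoter sequence, the 250 bases before RefSeq's start of the gene, was at hand for 28 of the 37 members. Those of 4 are shown: Hmgcs1 as the member that holds a sterol element, Sc5d and Cyp51 as late synthesis enzymes, and Soat1 as the storage gene described below. Capitals mark the CCAAT box (CCAAT, or ATTGG on the other strand) and, in Hmgcs1, the letters of a sterol element (TCACNCCAC, both strands searched, with no overlap between the marked stretches). The sequences are from RefSeq, build GRCm38.p6, written from 5′ to 3′ along the gene's own strand. Hmgcs1 lies at chr13:119690101-119690350 on the plus strand, Sc5d at chr9:42264301-42264550, Cyp51 at chr5:4104698-4104947 and Soat1 at chr1:156474329-156474578, these 3 on the minus strand.
Hmgcs1: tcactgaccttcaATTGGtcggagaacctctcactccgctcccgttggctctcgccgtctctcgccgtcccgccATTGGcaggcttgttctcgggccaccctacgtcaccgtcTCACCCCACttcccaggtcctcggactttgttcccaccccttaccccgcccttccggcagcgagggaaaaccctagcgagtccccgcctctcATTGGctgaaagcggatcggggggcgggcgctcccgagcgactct
Sc5d: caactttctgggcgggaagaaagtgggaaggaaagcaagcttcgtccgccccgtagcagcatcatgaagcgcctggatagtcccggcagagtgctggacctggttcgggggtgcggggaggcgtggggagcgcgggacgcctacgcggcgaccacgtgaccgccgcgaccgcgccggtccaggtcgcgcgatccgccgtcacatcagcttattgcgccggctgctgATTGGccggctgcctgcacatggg
Cyp51: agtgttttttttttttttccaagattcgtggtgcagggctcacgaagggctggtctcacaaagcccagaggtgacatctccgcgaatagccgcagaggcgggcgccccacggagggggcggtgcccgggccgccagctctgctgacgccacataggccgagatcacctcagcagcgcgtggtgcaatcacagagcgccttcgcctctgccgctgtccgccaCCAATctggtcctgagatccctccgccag
Soat1: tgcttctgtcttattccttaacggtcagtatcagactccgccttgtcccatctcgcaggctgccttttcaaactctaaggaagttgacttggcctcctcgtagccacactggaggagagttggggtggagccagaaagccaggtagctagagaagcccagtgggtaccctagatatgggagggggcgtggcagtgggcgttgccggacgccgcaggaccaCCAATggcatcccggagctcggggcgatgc
All 14 promoters found for synthesis enzymes held a CCAAT box, as did 21 of the 28 members and 37.5% of 27025 genes in the table. The sterol element as spelled here occurred in 1 member, Hmgcs1, and in 1.22% of all genes. A match is a description of letters and not of binding, and these letters may lie outside the window in other members.

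Per library, the sum of the deposited values was 5136441 to 6298743, and ventricular cardiomyocyte markers (10 genes) summed to 423423 to 540602. Values depended on GC content differently from library to library. The rank correlation of a gene's deviation with its GC content, over 10221 genes, was 0.34 and 0.46 in TAC hearts on SFA and 0.49 and 0.52 in sham hearts on SFA. In sham hearts on SFA-EAA it was -0.62 and -0.43. The TAC libraries on SFA-EAA disagreed, at 0.43 in replicate 1 and -0.73 in replicate 2, so replicate 1 stood apart from its group and was like the SFA libraries in this respect. Whether its diet label is right could not be settled here, and all values of TAC hearts on SFA-EAA carry that limit. The main results for these hearts are also given without it. Atrial cardiomyocyte markers were present unequally: Myl7, the atrial myosin light chain, stood at 322 in TAC replicate 2 on SFA and at 621 in sham replicate 1 on SFA, against 1.28 to 43.0 in the other 6 libraries.

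Star, the carrier of cholesterol into mitochondria, stood at 41.8 and 61.5 in TAC hearts on SFA, against 1.64 and 1.79 in sham hearts on SFA. On SFA-EAA it stood at 9.29 and 12.3 in TAC hearts and at 4.80 and 2.49 in sham hearts. Every TAC library lay above every sham library, and the TAC hearts on SFA lay above those on SFA-EAA. Star (ENSMUSG00000031574) lies on chromosome 8, from 25806555 to 25815982 on the plus strand of GRCm38.

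On SFA the ratio of the group means of Star was 30.1, and the log2 fold change of (value + 1) was 4.25, which is damped because the sham values lie near the added 1. On SFA-EAA the ratio of means was 2.96, and the log2 fold change was 1.38. The TAC effect on SFA-EAA minus that on SFA was -2.87 on the same log2 scale. Between diets, SFA-EAA minus SFA was -2.14 after TAC and 0.73 after sham. Leaving out TAC replicate 1 on SFA-EAA gave 1.56 for TAC on SFA-EAA, -2.69 for the difference of the TAC effects and -1.96 for diet after TAC. In bulk tissue, more RNA per cell and more cells of a type that holds the transcript cannot be told apart.

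Markers of the adrenal cortex, which is rich in Star, were at or near 0. Of 7 adrenal cortex markers, 4 were listed at 0 in all 8 libraries, namely Cyp11b1, Cyp11b2, Cyp21a1 and Nr5a1. The other 3 reached at most 1.92, the value of Cyp11a1 in TAC replicate 1 on SFA, where the sum of the list was also 1.92. The sums of the list lay between 0 and 1.92 in TAC libraries and between 0 and 0.0175 in sham libraries. The summed atrial markers, like Star, were higher in every TAC library than in any sham library. The 7 atrial cardiomyocyte markers summed to 10477 and 21903 in TAC hearts on SFA and to 4513 and 3407 in TAC hearts on SFA-EAA, against 1108 to 2894 in sham libraries. Most of each TAC sum was Nppa, at 3343 to 20406 in TAC libraries and 1013 to 1299.5 in sham libraries, which is also a known marker of load in the ventricle. Myl7 had another pattern: it stood at 11.8 and 322 in TAC hearts on SFA, where Star was 41.8 and 61.5, and at 621 in sham replicate 1 on SFA, where Star was 1.64. The part of atrial tissue in the values of Star was not tested.

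The enzymes that turn mitochondrial cholesterol into steroid hormones were mostly at or near 0. Of 15 genes of steroid hormone synthesis, chosen by name, 7 were listed at 0 in every library and 4 passed the threshold on values. These 4 were the electron carriers and their partners Fdx1, Fdxr and Por, and Tspo, a protein of the outer mitochondrial membrane. None of the 4 was called in any of the 6 comparisons. Of all 16432 genes, these called 0% to 2.11%, so the lack of calls says little about the 4. Fdx1, which passes electrons to mitochondrial cytochromes P450, stood at 189.5 to 273 in the 8 libraries. Cyp17a1 reached at most 0.961. Among 10 other genes with a START lipid-binding domain, none was called for TAC against sham on SFA, where 1.25% of all genes were called. The gene with the smallest p there was Stard10, with a log2 fold change of -1.31 and a limma adjusted p of 0.0701.

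**Figure D1:**
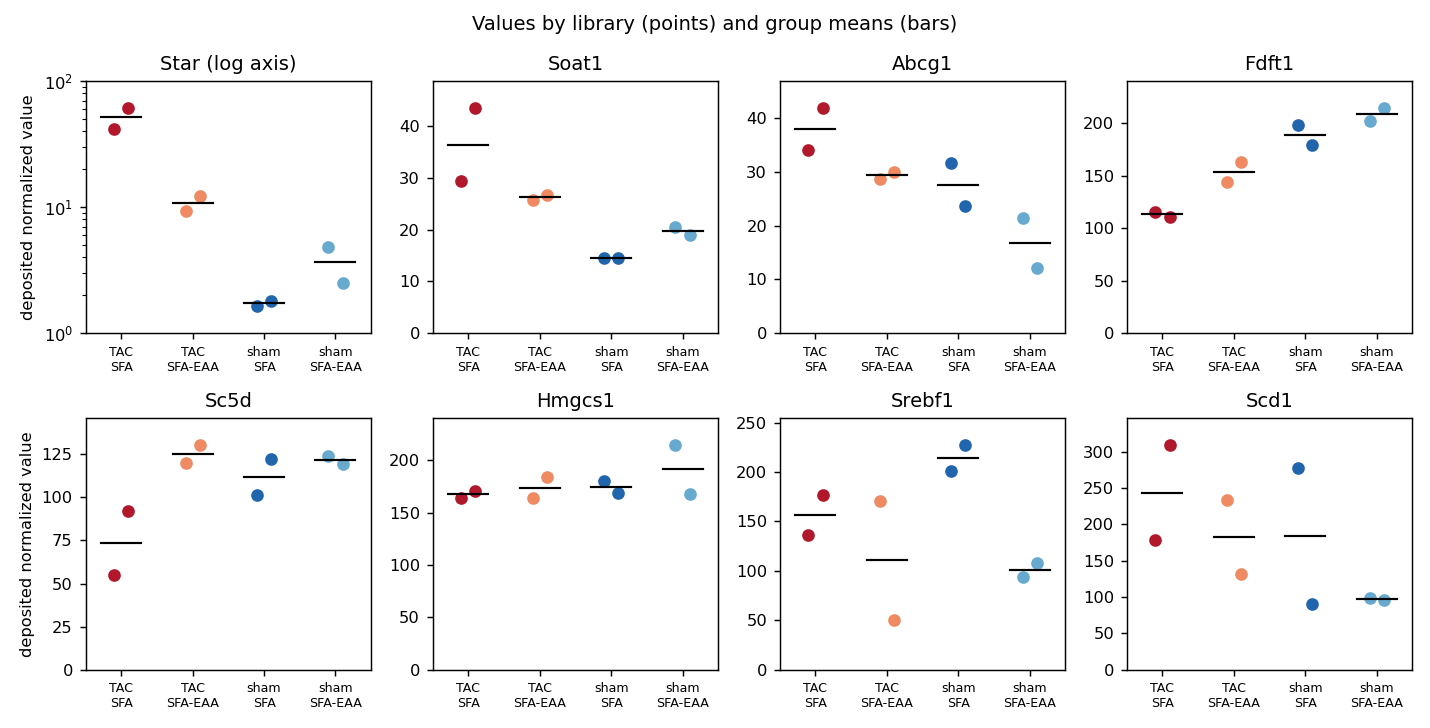
Deposited normalized value (vertical axes, linear from 0 except for Star, which is on a log axis) of 8 members in the 4 groups of 2 libraries. Points are libraries and bars are group means. Star stands at 41.8 and 61.5 in TAC hearts on SFA and at no more than 12.3 in any other library, whereas Hmgcs1 stays between 164 and 215.

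No enzyme of sterol synthesis was called higher in the TAC hearts where Star was high. On SFA, with limma on log2(value + 1) and p-values adjusted over all genes, 0 of the 17 were called and 4 had an unadjusted p under 0.05. In all 36 members other than Star, 0 were called and 6 had an unadjusted p under 0.05. Of all 16432 genes tested, 1.25% were called and 2197 had an unadjusted p under 0.05. The median log2 fold change of the 17 enzymes was -0.02, against 0.01 over all genes, with 8 values above and 9 below zero. The 95% interval stayed under a log2 fold change of 1, a doubling, in 12 of the 17, against 10754 of all 16432 genes. It lay wholly within a doubling or a halving in 7 of the 17, against 8129 of all 16432 genes.

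Summed over the 17 enzymes, the deposited values were 782 and 879 in TAC hearts on SFA, against 967 and 935 in sham hearts on SFA. On SFA-EAA the sums were 960 and 941 in TAC hearts and 1005 and 986 in sham hearts. The sums of TAC hearts on SFA were thus below the sums of all other groups, in the libraries where Star was highest. The totals of all deposited values were also lowest in these libraries. They were 5430107 and 5136441 there, against 5739729 to 6298743 in the others, and the sums of the enzymes were not scaled to them. An inverse relation to Star cannot be read from these sums. Such a sum is weighted to abundant genes such as Hmgcs1 and Fdft1.

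Of the enzymes up to farnesyl diphosphate, none was called after TAC. Hmgcs1, which makes the precursor of mevalonate, stood at 164 and 171 in TAC hearts and at 180.0 and 169 in sham hearts on SFA. In TAC hearts on SFA-EAA it stood at 164 and 184, against 215 and 168 in sham hearts on SFA-EAA. Its groups overlapped, and the log2 fold change on SFA was -0.06 with a 95% interval of -0.42 to 0.30. On SFA-EAA the interval ran from -0.49 to 0.23, so that a doubling lay outside it on both diets. The kinases of mevalonate, Mvk and Pmvk, ranged over 12.6 to 43.9 and 38.8 to 60.5 in the 8 libraries. Mvd, which makes isopentenyl diphosphate, ranged over 8.85 to 41.9. Idi1, its isomerase, and Fdps, which joins the units to farnesyl diphosphate, were low, at 3.59 to 8.70 and 6.54 to 17.7.

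Fdft1, squalene synthase, which commits farnesyl diphosphate to sterols, was the only one called of the 36 members tested, and it fell. It stood at 116 and 111 in TAC hearts on SFA, against 198 and 179.7 in sham hearts on SFA. TAC hearts on SFA-EAA held 144 and 163, against 202 and 215 in sham hearts on SFA-EAA. Every TAC library lay below every sham library, by the smallest margin between TAC replicate 2 on SFA-EAA and sham replicate 2 on SFA.

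Averaged over the diets, the log2 fold change of Fdft1 was -0.59 (SE 0.10, limma adjusted p = 0.026), and it was the 1 member of 36 called, where 2.11% of all genes were called. On SFA alone it was -0.73 (SE 0.14, limma adjusted p = 0.0503), and on SFA-EAA alone -0.44 (SE 0.14, limma adjusted p = 0.46). The difference between these effects was 0.29 (limma adjusted p = 0.913). The call on the average was kept without either TAC library on SFA-EAA and lost without any of the other 6, with limma adjusted p-values from 0.0739 to 0.134 and log2 fold changes between -0.63 and -0.54 over all 8. It was also lost with no filter on low values (limma adjusted p = 0.0631) and with the replicate number as a block (limma adjusted p = 0.0633). Without TAC replicate 1 on SFA-EAA, the log2 fold change on SFA-EAA was -0.35 (limma adjusted p = 0.336).

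Fdft1 (ENSMUSG00000021273) lies on chromosome 14, from 63145153 to 63177793 on the minus strand. It shares 774 of its 4227 exonic bases in GENCODE M21 with Ctsb, a lysosomal protease gene on the opposite strand with a mean value of 2746. The use of strand by the authors' counter was not given in the sources used here; reads of the shared bases may have been exchanged. The log2 fold change of Ctsb on SFA was 0.09, and averaged over the diets 0.04. Other members share exonic bases too. Tm7sf2 shares 532 of 4403 with Vps51 on the same strand, whose mean value is 48.9. Genes on the opposite strand share 511 of 11317 bases of Npc1, 166 of 4415 of Cyp51 and 109 of 5634 of Srebf1. The gene that overlaps Npc1, 3110002H16Rik, had a log2 fold change of -0.45 on SFA, and Npc1 had -0.41.

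The steps after squalene moved in no common direction. Sqle, squalene epoxidase, was sparse, at 5.65 and 12.2 in TAC hearts and 3.37 and 6.50 in sham hearts on SFA. Lss, which closes the ring to lanosterol, stood at 13.3 and 16.8 in TAC hearts and at 5.95 and 3.55 in sham hearts on SFA. On SFA-EAA Lss stood at 12.3 and 5.13 in TAC hearts and at 17.5 and 5.03 in sham hearts. Its fold change of (value + 1) on SFA was 2.83, the highest of the 36 members, with a wide 95% interval of 1.09 to 7.38 and a limma adjusted p of 0.328. Sham replicate 1 on SFA-EAA held the highest value of Lss, and the groups of that diet overlapped.

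Sc5d, a desaturase near the end of the pathway, stood at 54.8 and 92.2 in TAC hearts and at 101 and 122 in sham hearts on SFA. On SFA-EAA it stood at 120.0 and 131 in TAC hearts and at 124 and 119.6 in sham hearts. The TAC hearts on SFA lay below all other libraries, and they differed from each other by more than replicate 2 differed from sham replicate 1. The log2 fold change on SFA was -0.64 (SE 0.24, limma adjusted p = 0.283), and it lay between -1.01 and -0.27 on leaving out single libraries. Dhcr7, the last reductase, had a log2 fold change of -0.68 there, with a limma adjusted p of 0.355.

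The other late enzymes had ranges that overlapped between the operations. Cyp51, the demethylase of lanosterol, ranged over 51.1 to 90.0, and Msmo1, a sterol oxidase, over 35.7 to 52.1. Hsd17b7 and Nsdhl, which work with Msmo1 in removing methyl groups from the ring, ranged over 85.2 to 116 and 19.7 to 30.2. Ebp, a sterol isomerase, ranged over 51.1 to 83.0, and Tm7sf2, a sterol reductase, over 3.66 to 10.1. Dhcr7 ranged over 24.7 to 51.2. Within a diet some were separate. On SFA Dhcr7 was lower after TAC, at 24.7 and 25.8 against 51.2 and 32.9 in sham hearts. On SFA-EAA Msmo1, Hsd17b7 and Tm7sf2 were higher after TAC and Nsdhl was lower. The share of all genes separate within a diet is not given here. None of these late enzymes was called in either diet.

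**Figure D2:**
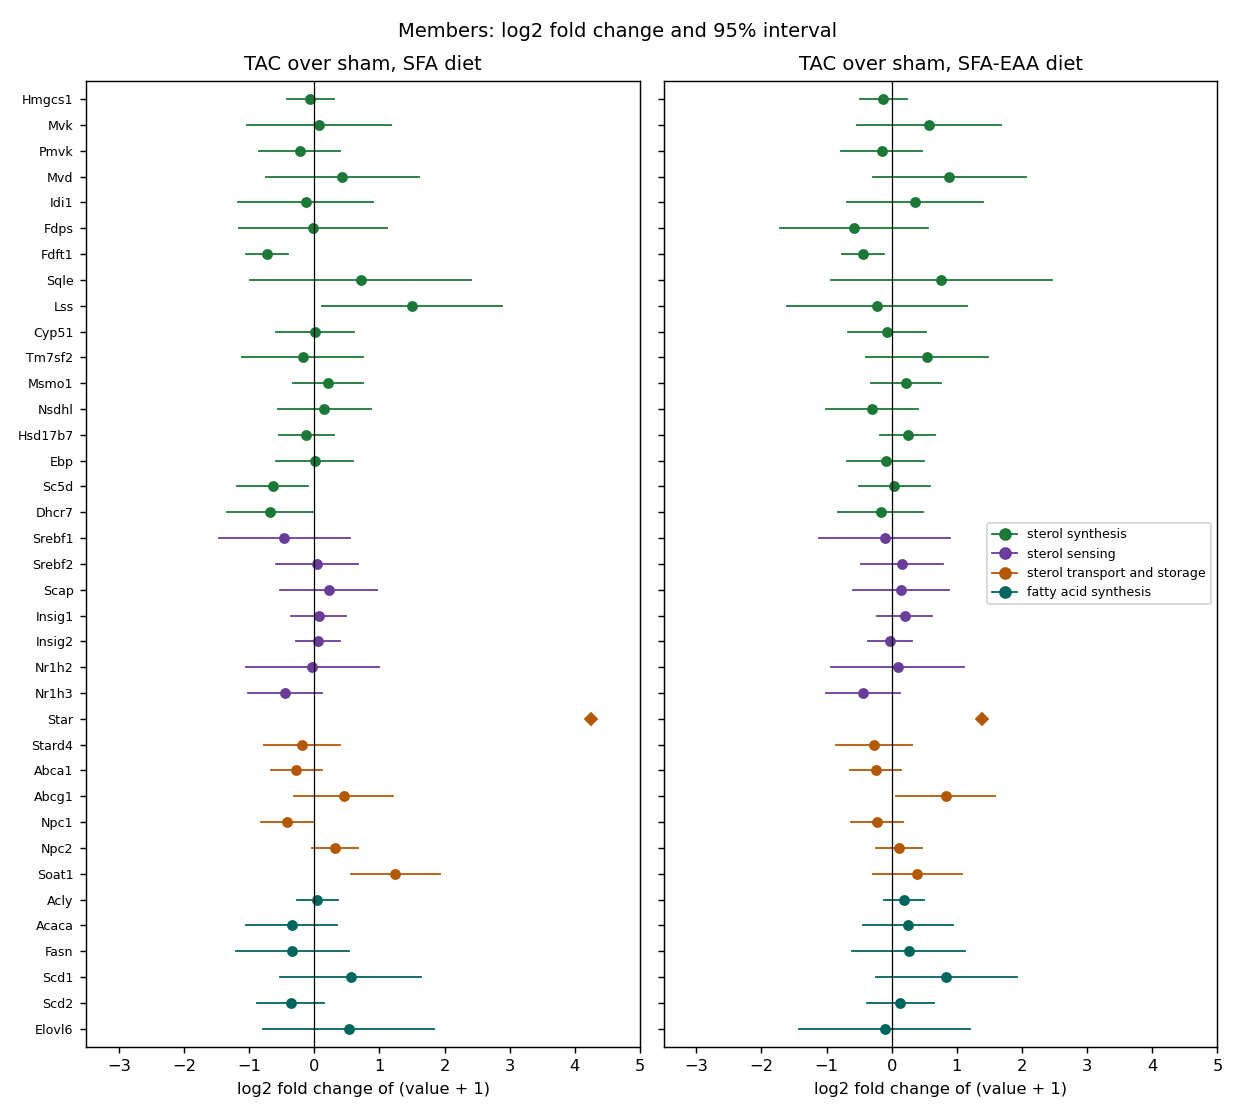
Log2 fold change of (value + 1), TAC over sham, for the 37 members (rows, coloured by role) on SFA (left) and on SFA-EAA (right). Points are estimates and lines are 95% intervals from limma; Star is drawn as a diamond without an interval because it was chosen for its rise. On SFA the estimates of the 17 synthesis enzymes run upward from -0.73 (Fdft1), the interval of Lss (highest) reaches 2.88, and Star lies at 4.25.

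With all 8 libraries, the genes that regulate sterol synthesis were not called after TAC. On SFA the 7 genes of sterol sensing had log2 fold changes from -0.46 (Srebf1) to 0.22 (Scap), and all 7 intervals lay under a doubling. Of these intervals, 4 lay wholly within a doubling or a halving, against 8129 of all 16432 genes. The intervals of Srebf1, Nr1h2 and Nr1h3 reached below a halving, to -1.46, -1.05 and -1.02. Srebf2, the SREBP that chiefly drives cholesterol synthesis, stood at 118 and 147 in TAC hearts on SFA, against 119.6 and 137 in sham hearts on SFA. Insig1, a target as well as a brake of the SREBPs, stood at 76.0 and 69.7 in TAC hearts, against 64.1 and 75.1 in sham hearts on SFA. The groups of both genes overlapped. Srebf1 and Nr1h3 were separate on SFA and lower after TAC. Srebf1 stood at 137 and 177 in TAC hearts, against 201 and 228 in sham hearts on SFA. Nr1h3 stood at 55.9 and 56.7 in TAC hearts, against 87.9 and 67.7 in sham hearts on SFA. Without TAC replicate 1 on SFA-EAA, the averaged log2 fold change of Srebf1 was -0.72, and that setting is described below. Insig2, the second Insig protein, ranged over 268 to 369 in the 8 libraries. Nr1h3, the LXR alpha receptor, ranged over 44.7 to 87.9, and its log2 fold change averaged over the diets was -0.44.

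Soat1, which esterifies cholesterol for storage in droplets, was higher in every TAC library than in any sham library. It stood at 29.3 and 43.5 in TAC hearts on SFA, against 14.5 and 14.6 in sham hearts on SFA. TAC hearts on SFA-EAA held 25.7 and 26.7, against 20.5 and 18.9 in sham hearts on SFA-EAA. The log2 fold change was 1.24 on SFA (SE 0.30, limma adjusted p = 0.0982), 0.39 on SFA-EAA (limma adjusted p = 0.796) and 0.82 averaged over the diets (SE 0.21, limma adjusted p = 0.0991), so it was not called. After correction for GC content, Soat1 and Fdft1 were the 2 members called on SFA, where 5.00% of all genes were called. The same 2 were called on the average, where 6.20% of all genes were called, with limma adjusted p = 0.0445 for Soat1 and 0.0037 for Fdft1.

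Besides Star, the members whose TAC and sham libraries did not overlap were Soat1, higher after TAC, and Fdft1, lower after TAC. Of all genes tested, 6.48% had 4 TAC libraries on one side of 4 sham libraries. Macrophages, which are rich in Soat1, also differed between the operations. The 12 macrophage markers summed to 1909 to 2416 in TAC libraries, against 1319 to 1870 in sham libraries. Of these, 2 were called higher on the average over the diets, namely Fcgr1 and C1qb, where 2.11% of all genes were called. The 10 fibroblast markers summed to 10047 to 24019 in TAC libraries, against 10151 to 13522 in sham libraries, and 3 of them were called higher in the same comparison. The part of these cells in the values of Soat1 was not tested.

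The genes of sterol export and transport were not called. Abcg1, which exports cholesterol to lipoproteins, stood at 34.1 and 41.9 in TAC hearts and at 31.7 and 23.6 in sham hearts on SFA. On SFA-EAA it stood at 28.7 and 30.0 in TAC hearts and at 21.4 and 12.1 in sham hearts. TAC and sham were separate within each diet but overlapped between diets, and the averaged log2 fold change was 0.64 (SE 0.24, limma adjusted p = 0.24). Abca1, which exports cholesterol to apolipoprotein A-I, ranged over 132 to 194, with negative estimates on both diets. Npc1 and Npc2, which release cholesterol from lysosomes, ranged over 132 to 231 and 251 to 386. Their averaged log2 fold changes were -0.32 for Npc1 and 0.21 for Npc2. Stard4, a cytosolic sterol carrier of the same family as Star, ranged over 35.0 to 55.0 and had negative estimates on both diets, of -0.18 on SFA and -0.27 on SFA-EAA.

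No enzyme of fatty acid synthesis was called for TAC on either diet, and libraries of a group differed widely for some. Scd1, which desaturates stearoyl-CoA, stood at 178 and 309.8 in TAC hearts and at 278 and 91.1 in sham hearts on SFA. In TAC hearts on SFA-EAA it stood at 234 and 131, against 99.4 and 95.7 in sham hearts on SFA-EAA. Its log2 fold change on SFA-EAA was 0.84 (SE 0.48, limma adjusted p = 0.683) and lay between 0.43, without TAC replicate 1 on SFA-EAA, and 1.25 on leaving out single libraries. The 2 highest values of Scd1 came from the 2 libraries with the highest Myl7. Acaca, the first enzyme of fatty acid synthesis, ranged over 36.3 to 72.7. Acly, which makes acetyl-CoA in the cytosol for both pathways, ranged over 165 to 208.

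Sham replicate 1 on SFA held the highest sham values of Scd1, Scd2, Fasn and Acaca, and the highest values of the fat cell genes Adipoq, at 16.1, and Cfd, at 29.5. In the other 7 libraries Adipoq reached at most 8.97 and Cfd at most 18.0. Plin1, Cidec, Retn and Lep were also highest in that library, whereas Plin4, Aqp7, Adig and Slc7a10 were highest in sham libraries on SFA-EAA. The whole list of 10 adipocyte markers is dominated by Plin4 of muscle and fat. It summed to 722 to 919 in TAC libraries and 872 to 1158 in sham libraries, with 904 in sham replicate 1 on SFA. The part of fat cells and of atrial tissue in the values of these members was not tested.

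Few genes of any kind were called for TAC on SFA-EAA. Of the 36 members, 0 were called by limma and 2 had an unadjusted p under 0.05. Of all 16432 genes, 0.0122% were called and 1408 had an unadjusted p under 0.05. The median of the 17 synthesis enzymes was -0.07, against 0.00 over all genes. The smallest p-values among members were those of Fdft1, Abcg1 and Scd1. Leaving out single libraries moved the log2 fold change of Abcg1 there between 0.44 and 1.22, with 0.86 without TAC replicate 1 on SFA-EAA. For the difference of the TAC effects between diets, 0 of the 36 members were called and 0 had an unadjusted p under 0.05. That comparison called 0% of all genes, with 902 of 16432 at an unadjusted p under 0.05. The smallest p-values among members were those of Sc5d, Lss and Soat1, with differences of 0.68, -1.73 and -0.85 on the log2 scale and a limma adjusted p of 0.88 for each. On leaving out single libraries these lay between 0.31 and 1.05 for Sc5d, between -2.54 and -0.92 for Lss and between -1.13 and -0.57 for Soat1. Without TAC replicate 1 on SFA-EAA they were 0.74, -2.29 and -0.82 in the same order.

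**Figure D3:**
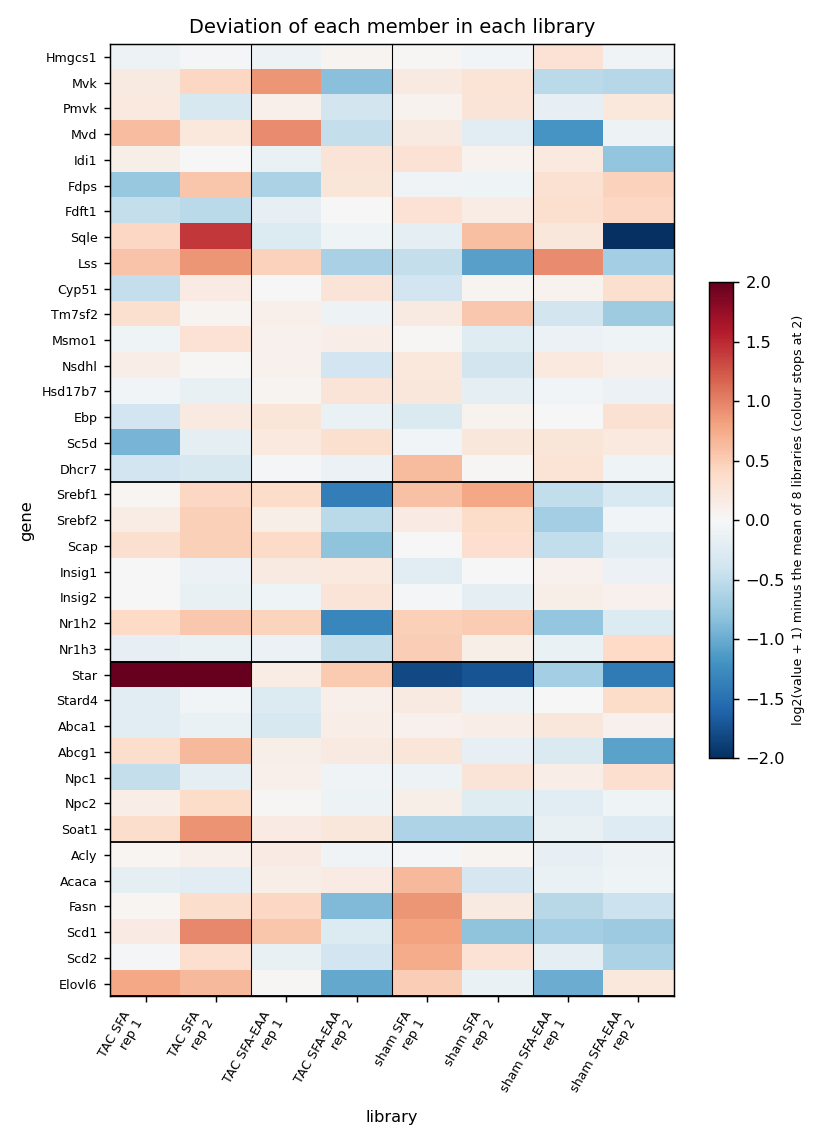
Deviation of log2(value + 1) from the mean of the 8 libraries, for each member (rows, in 4 blocks by role) and library (columns, TAC on the left). Colour stops at 2. Star stands out as high in both TAC libraries on SFA, the synthesis block shows no common pattern by operation, and Srebf1, Scap, Nr1h2 and Fasn are low in TAC replicate 2 and both sham libraries on SFA-EAA.

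Between the diets, GC-rich members were lower on SFA-EAA in the libraries whose values fell with GC content. Srebf1, whose product drives fatty acid synthesis, stood at 171 and 50.6 in TAC hearts on SFA-EAA, against 137 and 177 in TAC hearts on SFA. After sham it stood at 94.1 and 108 on SFA-EAA and at 201 and 228 on SFA. The groups were separate after sham, while after TAC replicate 1 on SFA-EAA lay with the SFA libraries and replicate 2 far below them. After sham the log2 fold change was -1.08 (SE 0.44, limma adjusted p = 0.319).

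Fasn, the fatty acid synthase, stood at 78.3 and 85.5 in sham hearts on SFA-EAA, against 216 and 132 in sham hearts on SFA. Its log2 fold change was -1.04 (SE 0.38, limma adjusted p = 0.293), and it lay between -1.39 and -0.68 on leaving out single libraries. After TAC it stood at 155 and 62.4 on SFA-EAA and at 119 and 149 on SFA. Scd2, the second stearoyl-CoA desaturase here, stood at 131 and 95.8 in sham hearts on SFA-EAA, against 249 and 181 in sham hearts on SFA. Its log2 fold change was -0.91 (SE 0.23, limma adjusted p = 0.267), and after TAC it stood at 133 and 113 on SFA-EAA and at 145 and 188 on SFA. Both genes were separate between the diets after sham.

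After TAC, the members with the smallest p-values for diet were Sc5d, Fdft1 and Elovl6. On SFA-EAA minus SFA, Sc5d had a log2 fold change of 0.81 (SE 0.24, limma adjusted p = 0.188) and Fdft1 of 0.43 (SE 0.14, limma adjusted p = 0.227). Elovl6, an elongase of palmitate, stood at 4.12 and 1.48 on SFA-EAA, against 7.58 and 6.94 on SFA, and had a log2 fold change of -1.21 (limma adjusted p = 0.361). Without TAC replicate 1 on SFA-EAA the log2 fold changes were 0.87 for Sc5d (limma adjusted p = 0.0737) and -1.74 for Elovl6 (limma adjusted p = 0.13), while Fdft1 is given below. Leaving out single libraries moved Sc5d between 0.44 and 1.18 and Elovl6 between -1.74 and -0.69. Of the 36 members, 0 were called by limma and 2 had an unadjusted p under 0.05 after TAC, where 0.0487% of all genes were called and 2476 had an unadjusted p under 0.05. After sham 0 were called and 4 had an unadjusted p under 0.05, where 0% of all genes were called and 2437 of 16432 had an unadjusted p under 0.05.

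Without TAC replicate 1 on SFA-EAA, which leaves a lone library in that group and assumes that it varies like the others, more members passed. After TAC, 5 of the 36 were called for diet, where 13.3% of all genes were called. Of these, 4 were lower on SFA-EAA, with log2 fold changes of -1.60 for Srebf1, -1.21 for Scap, -1.77 for Nr1h2 (the LXR beta receptor) and -1.09 for Fasn, and Fdft1 was higher by 0.52. After sham, Srebf1, Fasn, Scd2 and Nr1h2 were called, all lower on SFA-EAA, where 7.30% of all genes were called. For TAC against sham averaged over the diets, Fdft1 at -0.54 and Srebf1 at -0.72 were called without this library, where 6.61% of all genes were called.

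Srebf1, Scap, Nr1h2 and Fasn have transcripts of 57.9% to 60.6% GC. With a correction for GC content added to leaving out that library, 2 members were called for diet after TAC, where 3.43% of all genes were called: Srebf1 at -0.76 (limma adjusted p = 0.0363) and Fdft1 at 0.69 (limma adjusted p = 0.0279). After sham 1 member was called, Scd2 at -0.90 (limma adjusted p = 0.0477), where 1.34% of all genes were called. For TAC against sham averaged over the diets, Fdft1 at -0.55 and Srebf1 at -0.63 were called, where 8.15% of all genes were called. With all 8 libraries and the GC correction, 0 of the 36 members were called for diet by limma, where 1.86% of all genes were called after TAC and 0.0304% after sham. The correction removes any difference that follows GC content, whatever its source.

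The members followed GC content as well, and the trend over 10221 genes above shows that this is not particular to them. Of the 12 members of highest GC content (52.1% to 60.6%), 12 had a negative diet difference after sham, with a median of -0.63 on the log2 scale. Of the 12 of lowest GC content (41.9% to 46.2%), 3 did, with a median of 0.14. After the correction these counts were 9 and 7, with medians of -0.10 and -0.08. The correction is built to remove such a trend, so this levelling is not a test of its source. The 17 synthesis enzymes had medians of 0.01 for diet after TAC and 0.01 after sham without the correction.

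**Figure D4:**
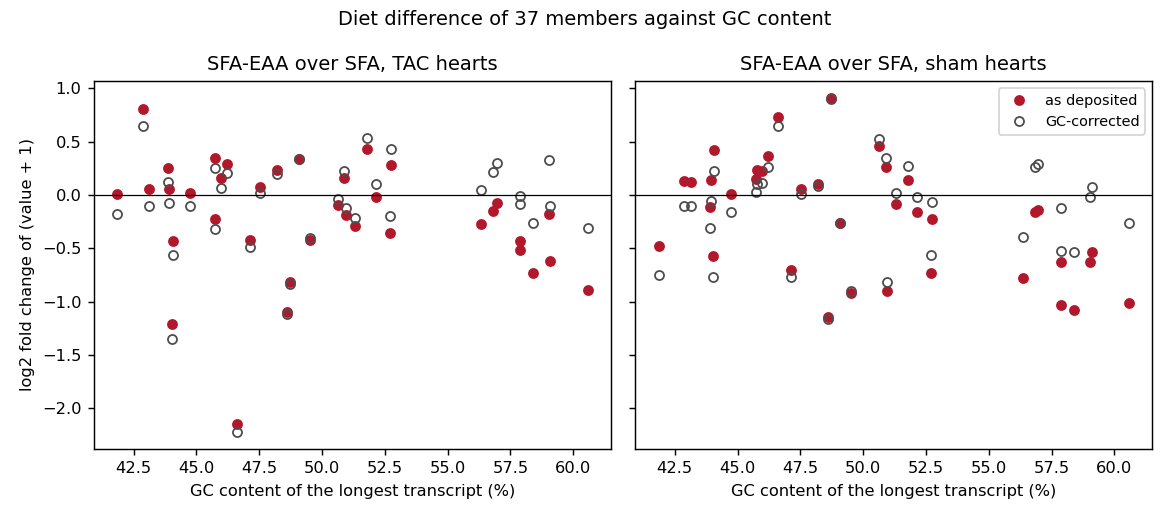
Log2 fold change of (value + 1), SFA-EAA over SFA, of the 37 members (points) against the GC content of the longest transcript in percent, after TAC (left) and after sham (right). Filled points are values as deposited and open points are GC-corrected. After sham the 12 members of highest GC content all lie below zero as deposited, and 9 of them after the correction.

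Levels between genes were compared per kilobase of the length the table gives. Npc2 and Insig2 led, with mean values per kilobase of 92.0 and 89.1 over the 8 libraries, followed by Fdft1 at 58.0 and Hmgcs1 at 54.7. Star stood at a mean of 12.6 per kilobase in TAC hearts on SFA and 2.62 in TAC hearts on SFA-EAA, against 0.418 in sham hearts on SFA and 0.885 in sham hearts on SFA-EAA. Soat1 stood at 3.20 per kilobase in TAC libraries and 1.75 in sham libraries. The lowest levels were those of Lss, Sqle and Elovl6, all under 1 per kilobase over the 8 libraries, so their fold changes rest on low values.

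Further genes of the same pathways, chosen by name, gave no call after TAC. Of 21 genes of sterol uptake, hydrolysis and SREBP processing, 0 were called by limma on SFA and 6 had an unadjusted p under 0.05, with a median log2 fold change of -0.13; over all 16432 genes 2197 had such a p and the median was 0.01. The smallest p was that of Mylip, a ligase that directs lipoprotein receptors to degradation, at -0.77 (limma adjusted p = 0.0803). Averaged over the diets it was Lpcat3, an LXR target that remodels phospholipids, at -0.45 (limma adjusted p = 0.0579). Of 18 further genes of fatty acid and glycerolipid synthesis, 0 were called on SFA and 6 had an unadjusted p under 0.05, with a median of -0.07. The smallest p was that of Mlycd, which degrades malonyl-CoA, at -0.87 (limma adjusted p = 0.145).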

How the data were processed

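Polyadenylated RNA of the left ventricle went into stranded libraries that were read on an Illumina NextSeq instrument, as the labels' protocols state. Per the submitters' processing notes, alignment by the authors used STAR 2.5 with build GRCm38, and normalization used edgeR. The deposited values are a normalized signal per gene and library, not whole counts, with a gene length in bases. Counter, annotation release, use of strand and filters were not given in the sources used here. Depth is known only through the sum of the deposited values, 5136441 to 6298743.

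Limma-trend (limma 3.58.1, R 4.3.3) was run on log2(value + 1) for the 16432 genes that reached 1 in 2 or more libraries. It used all 8 libraries and 1 mean per group, was two-sided, with Benjamini-Hochberg adjustment over all genes in each of 6 comparisons and a threshold of 0.05 ("called"). The test for whole counts named as an option in the design was not used, since the values are not whole. Fold changes are of (value + 1) and understate changes of low genes. GC content came from the longest GENCODE M21 transcript. The correction subtracted a loess curve (span 0.3) per library, fitted to genes whose mean was 20 or more, and left rank correlations of -0.03 to 0.04. Scripts were tested on simulated data. Members, roles and gene lists were chosen with earlier results of these data known. Per comparison the 3 members with the smallest p are given in every library, as are Star and each called member. Members called under other settings are named besides. The other pathway lists give counts, medians and the gene with the smallest p. Alternatives were a pseudocount of 0.25, other filters, scalings, a replicate block, GC correction, fits to the groups compared and leaving out each library. Leaving out TAC replicate 1 on SFA-EAA together with the GC correction was added after seeing the data. Figures used Python 3.11.15 and matplotlib 3.10.9.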

Additional observations from a re-analysis of the deposited data

How the results depend on the processing

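The share of all genes called changed with the setting, so the counts of members below are not results about the members alone. With the GC correction 5.00% of all genes were called for TAC on SFA and 6.20% on the average, against 1.25% and 2.11% without it. Shares for some other settings stand above, and the rest are not given. The counts of members called (Star left out) moved as follows. For TAC against sham on SFA, where none was called, Fdft1 alone was called (1) with a mean of at least 5, with median-of-ratios scaling, with no filter on low values, with only the groups compared, and with the replicate block and GC correction together. There 2 were called with the GC correction and 3 with the GC correction and without TAC replicate 1 on SFA-EAA (Srebf1, Fdft1 and Soat1). Leaving out single libraries gave 0 to 2. Averaged over the diets, where 1 was called, 0 were called with no filter and with the replicate block, 2 with the GC correction, and 2 with that correction and without TAC replicate 1 on SFA-EAA, while leaving out single libraries gave 0 to 2. For diet after TAC, leaving out single libraries gave 0 to 5, and 2 with the GC correction and without TAC replicate 1 on SFA-EAA. For diet after sham, 2 (Srebf1 and Nr1h2) were called with only the groups compared, 0 to 4 on leaving out single libraries (4 without either TAC library on SFA-EAA), and 1 with the GC correction and without TAC replicate 1. No member was called for TAC on SFA-EAA or for the difference of TAC effects under any setting run. The pseudocount of 0.25 and quantile normalization left every count of members as it was. None of the 21 fold changes of single genes recomputed under every setting reversed its sign. These were of Star and, per comparison, of the 3 members with the smallest p. They were thus picked for clear differences, and their kept signs say nothing of the other members. The other fold changes in the text were not followed in this way. The medians of the 17 synthesis enzymes lie near 0 and changed sign: on leaving out single libraries they ran from -0.07 to 0.11 for TAC on SFA, from -0.07 to 0.09 for TAC on SFA-EAA and from -0.05 to 0.08 on the average. Star on SFA lay between 3.98 and 4.52 on leaving out libraries and at 4.70 with a pseudocount of 0.25. The causes of these moves were not tested. No pairing by replicate number was seen: correlations of same-numbered deviations lay between -0.18 and 0.02 over 12420 genes. These values were not corrected for GC content, whose trend differs between libraries, so a weaker pairing could be hidden. With the replicate block, Fdft1 averaged over the diets kept its log2 fold change of -0.59 and had a limma adjusted p of 0.0633, and 147 genes were called in all, against 347 without it. With 2 libraries a group, intervals of sparse genes such as Sqle and Lss are too wide to show a change of less than a doubling.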
